A study of Mus musculus with 7 samples.

Results

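The 10 genes described here encode transcription factors that set up photoreceptors in the mouse retina: Crx, Nrl, Nr2e3, Otx2, Rorb, Neurod1, Mef2d, Prdm1, Thrb and Rxrg. The members are all the H3K18La peaks that the deposited annotation gives to one of these gene symbols, in promoters, introns, exons and distal regions. There were 182 such peaks of 108253 in the series, in 10 of the 25420 genes with a peak. H3K18La, lactylation of histone H3 at lysine 18, was mapped by CUT&Tag, in which an antibody guides an enzyme that tags the DNA around the mark. The libraries came from dissociated whole retinas of C57Bl/6J mice with no other allele or treatment: 2 at postnatal day 4 (P4), 2 at P10 and 3 at P28. The design asks how the mark changes while the retina matures. Nothing in the labels says whether replicates were separate animals, so p-values measure the spread between these libraries.

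Photoreceptors arise from retinal progenitors that switch on Otx2, which in turn acts with Crx to start the photoreceptor programme. Rorb acts upstream of Nrl, the bZIP factor that directs a precursor to the rod fate, and Nrl activates Nr2e3, a nuclear receptor that represses cone genes in rods. Thrb and Rxrg encode nuclear receptors of developing cones, Prdm1 (Blimp1) holds back bipolar genes in new photoreceptors, and Neurod1 and Mef2d support differentiation and survival. Rods make up most cells of the mature mouse retina, and their outer segments form between the first and the last of these ages. In whole retina, more marked cells and more mark per cell cannot be told apart.

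The sequences of the start sites where the main results were measured follow, 5′ to 3′ on the gene's own strand, from RefSeq (GRCm38.p6), each from 250 bases before to 50 bases after the start. All 10 genes matched the promoter table, with 16 start sites, and 13 of these windows overlapped a member peak; the other 3 belong to Otx2. Capitals mark matches, on either strand, to 6 short motifs: TAATCC (CRX and OTX core), TGCTGA (part of an NRL site), AGGTCA (half-site of nuclear receptors), CAGATG (E-box of the NEUROD kind), CTANNNNTAG (MEF2) and GGGCGG (GC box), where overlapping matches were counted separately. The windows lie at chr7:15879906-15880205 (Crx, minus strand), chr14:55524203-55524502 (Nrl, minus), chr9:59950030-59950329 (Nr2e3, minus), chr2:79456587-79456886 (Neurod1, minus), chr14:17660710-17661009 and chr14:17981394-17981693 (Thrb, upstream and downstream start, plus) and chr1:167598112-167598411 (Rxrg, plus). They are shown because Crx, Nrl, Nr2e3 and Neurod1 gained the mark at these sites, because 1 of the 2 Thrb starts passed the test and the other did not (their difference was not tested), and because the change at the Rxrg start was not called at either age.
Crx promoter: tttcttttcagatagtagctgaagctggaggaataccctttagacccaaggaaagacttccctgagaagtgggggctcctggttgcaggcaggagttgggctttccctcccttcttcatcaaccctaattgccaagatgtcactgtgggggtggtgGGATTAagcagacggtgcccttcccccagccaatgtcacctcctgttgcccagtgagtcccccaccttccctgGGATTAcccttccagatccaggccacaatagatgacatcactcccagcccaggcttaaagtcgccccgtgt
Nrl promoter: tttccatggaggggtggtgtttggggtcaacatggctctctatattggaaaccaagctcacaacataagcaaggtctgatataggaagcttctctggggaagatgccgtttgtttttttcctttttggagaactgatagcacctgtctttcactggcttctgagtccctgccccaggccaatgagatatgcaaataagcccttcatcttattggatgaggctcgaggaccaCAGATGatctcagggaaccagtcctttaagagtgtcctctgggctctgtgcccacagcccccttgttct
Nr2e3 promoter: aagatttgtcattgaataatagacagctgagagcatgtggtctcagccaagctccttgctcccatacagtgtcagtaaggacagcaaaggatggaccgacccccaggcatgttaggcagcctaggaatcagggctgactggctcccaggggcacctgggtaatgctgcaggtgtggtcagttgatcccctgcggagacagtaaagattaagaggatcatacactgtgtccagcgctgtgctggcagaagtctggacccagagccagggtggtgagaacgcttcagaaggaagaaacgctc
Neurod1 promoter: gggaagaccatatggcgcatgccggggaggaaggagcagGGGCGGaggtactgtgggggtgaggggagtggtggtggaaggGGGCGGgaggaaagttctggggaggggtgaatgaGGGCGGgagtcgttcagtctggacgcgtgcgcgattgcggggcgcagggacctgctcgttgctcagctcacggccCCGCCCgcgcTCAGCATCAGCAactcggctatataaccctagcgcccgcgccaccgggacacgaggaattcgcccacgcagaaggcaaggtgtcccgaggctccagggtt
Thrb upstream promoter: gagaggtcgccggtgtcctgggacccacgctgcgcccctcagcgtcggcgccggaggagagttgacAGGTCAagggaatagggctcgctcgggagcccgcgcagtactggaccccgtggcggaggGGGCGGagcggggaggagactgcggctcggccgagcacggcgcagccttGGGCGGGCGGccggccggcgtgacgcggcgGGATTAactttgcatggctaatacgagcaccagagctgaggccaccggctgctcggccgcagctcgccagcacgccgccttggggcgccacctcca
Thrb downstream promoter: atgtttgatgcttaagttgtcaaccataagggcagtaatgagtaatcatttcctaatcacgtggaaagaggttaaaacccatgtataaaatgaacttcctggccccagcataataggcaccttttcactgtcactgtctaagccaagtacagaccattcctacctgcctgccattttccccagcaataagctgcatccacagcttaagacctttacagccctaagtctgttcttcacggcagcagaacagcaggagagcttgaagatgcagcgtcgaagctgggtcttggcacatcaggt
Rxrg promoter: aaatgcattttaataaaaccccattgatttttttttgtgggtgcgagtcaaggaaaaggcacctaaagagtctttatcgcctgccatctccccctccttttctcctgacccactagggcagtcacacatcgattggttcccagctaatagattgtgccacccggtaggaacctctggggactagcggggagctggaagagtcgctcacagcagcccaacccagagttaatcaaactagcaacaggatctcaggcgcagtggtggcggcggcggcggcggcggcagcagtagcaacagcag

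The Crx window held 2 CRX and OTX cores, at -94 and -21 from the start. The Nrl window held 1 E-box at -19, and no letters of the 6 motifs were found in the Nr2e3, Thrb downstream and Rxrg windows. The Neurod1 window held 2 NRL half-sites, at -50 and -44, and 4 GC boxes. The Thrb upstream window was rich in GC (72.7%) and held 3 GC boxes, a CRX and OTX core at -46 and a nuclear receptor half-site at -184. Among all 32851 RefSeq promoter windows of this length, 7.06% held a CRX and OTX core, 19.5% an NRL half-site, 16.3% a nuclear receptor half-site, 17.2% the E-box, 3.69% the MEF2 letters and 35.7% a GC box. Of the 16 member windows, 3, 5, 2, 2, 0 and 4 held them in the same order. A match describes the letters only.

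Outside promoters, the 300 bases at the centre of a peak are shown for 3 regions, on the plus strand: the Crx peak downstream of the gene (chr7:15864293-15864592), the first-intron peak of Mef2d (chr3:88147911-88148210), and the distal Thrb peak with the largest rise of all members (chr14:17431679-17431978). They are the non-promoter regions that the results on Crx, Mef2d and Thrb turn on.
Crx distal peak centre: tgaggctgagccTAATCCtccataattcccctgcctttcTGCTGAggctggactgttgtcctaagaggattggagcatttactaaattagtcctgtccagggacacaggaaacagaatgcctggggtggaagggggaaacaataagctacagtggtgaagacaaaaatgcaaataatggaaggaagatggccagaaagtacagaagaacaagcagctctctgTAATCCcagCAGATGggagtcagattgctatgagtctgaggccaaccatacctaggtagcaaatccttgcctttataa
Mef2d intron peak centre: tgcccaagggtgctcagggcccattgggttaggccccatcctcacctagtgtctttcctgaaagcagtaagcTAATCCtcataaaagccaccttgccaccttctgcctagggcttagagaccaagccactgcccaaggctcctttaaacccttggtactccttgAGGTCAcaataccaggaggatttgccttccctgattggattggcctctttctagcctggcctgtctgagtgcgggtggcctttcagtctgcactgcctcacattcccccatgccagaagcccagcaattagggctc
Thrb distal peak centre: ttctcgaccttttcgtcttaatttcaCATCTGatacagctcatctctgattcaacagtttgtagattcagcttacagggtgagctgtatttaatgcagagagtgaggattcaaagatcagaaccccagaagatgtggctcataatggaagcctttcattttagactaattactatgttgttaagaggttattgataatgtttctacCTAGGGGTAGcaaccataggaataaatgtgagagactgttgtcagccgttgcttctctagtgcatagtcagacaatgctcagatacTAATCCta

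The Crx distal centre held 2 CRX and OTX cores, 1 NRL half-site and 1 E-box. The Mef2d centre held 1 CRX and OTX core and 1 nuclear receptor half-site, and the Thrb centre held 1 CRX and OTX core, 1 E-box and the MEF2 letters. Over the centres of all 182 member peaks, 13.2% held a CRX and OTX core against 11.5% of all peak centres, 30.2% the E-box against 25.2% and 27.5% an NRL half-site against 24.8%. A nuclear receptor half-site was in 20.3% against 21.1%, the MEF2 letters in 4.40% against 4.48% and a GC box in 7.69% against 11.8%.

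The libraries differed in depth and in the share of reads in peaks, which moved with age. Reads in peaks ran from 199970 to 8274373 per library, and a median peak held 1 or 2 reads in the P4 and P10 libraries against 6 to 33 at P28. The share of the normalised library size that lay in peaks was 16.3% and 17.6% at P4, 36.1% and 52.1% at P10 and 42.4% to 57.1% at P28. By the labels, batch 2 holds a single library, P28 replicate 1, so the values without it are those within batch 1. Of the 182 member peaks, 97 had 3 reads or fewer in each P4 library, and 64 in each P10 library. A peak with so few P4 reads can be in the merged set through a later age, where it was high. The p-value of its rise does not allow for that choice. As a check of the tissue, 20 of 22 rod and cone genes had a promoter peak, against 3 of 14 genes that mark other tissues (Ckm, Best1 and Cryaa).

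The 10 genes differed in how much chromatin was marked around them. Thrb had 95 peaks over 625.4 kb, Rorb 23 over 181.7 kb, Prdm1 21 over 110.0 kb and Rxrg 16 over 120.6 kb. Mef2d had 10 peaks, Otx2 5, Nr2e3 4, Nrl and Neurod1 3 each and Crx 2. The small loci of Crx, Nrl, Nr2e3 and Neurod1 thus rest on few regions, and Thrb alone gave more peaks than the other 9 genes together. By class, 20 member peaks (11.0%) lay in promoters, 94 (51.6%) in introns, 58 (31.9%) in distal regions and 10 (5.49%) in exons or UTRs, against 15.8%, 42.0%, 32.8% and 9.36% of all peaks. The widest member was the Nr2e3 promoter peak, with 4706 bases, and the median member was 789 bases wide against 757 for all peaks.

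H3K18La over the whole gene rose from P4 to P28 at 9 of the 10 factors, namely all but Rxrg, and this count compares with 33.7% of all genes called higher. A gene's level is the reads of all its peaks per kilobase of their summed width, in RPKM. Between P4 and P10 the level rose at 8 of 10, all but Rorb and Rxrg, against 16.5% of all genes. No factor passed the test between P10 and P28, where 4.2% of genes were called higher and 0.677% lower; 4 of the 10 had an unadjusted p under 0.05, near the 38.9% of all genes. Calls are at an adjusted p under 0.01 in limma, and changes are on the log2(RPKM + 1) scale with their standard error (SE). The direction of the 9 rising genes held under each of the 15 alternatives run. However, only 5 of the 9 were still called when scaled to total reads in peaks, and 5 when quantile normalised. The changes went down to 0.20 (Thrb). Of the 8 genes called by P10, 5 were still called under each of these scalings. The plot of gene levels shows every library.

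**Figure D1:**
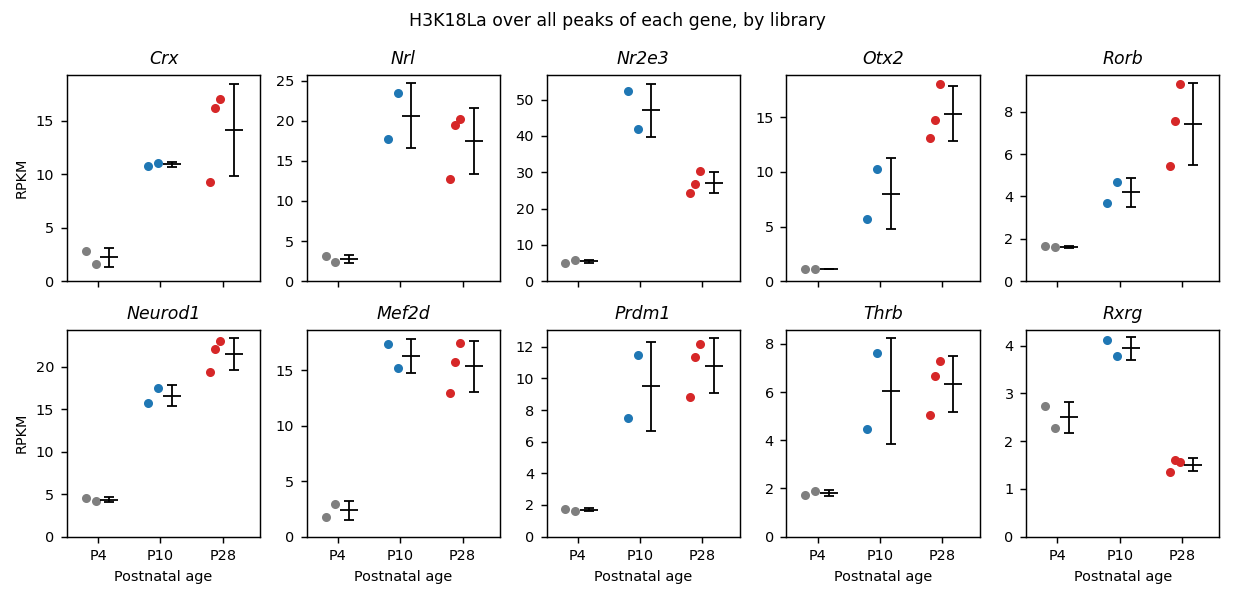
H3K18La level over all peaks of each of the 10 genes in RPKM (vertical axis, from 0, own scale per gene) against postnatal age, with 1 point per library and the mean and SD beside the points (n = 2, 2 and 3). All P28 points lie above both P4 points for 9 genes, Nr2e3 is highest at P10, and the 3 Rxrg points at P28 (1.36 to 1.60 RPKM) lie below both P4 points.

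Otx2, the factor at the head of the pathway, had the lowest level at P4 and the largest gene-level rise from P4 to P28. Its level was 1.15 and 1.13 RPKM at P4, 5.69 and 10.3 at P10 and 13.1, 14.7 and 18.04 at P28. The P4 values rest on 12 and 9 reads over its 5 peaks, and the rise is measured from these same values. The 3 ages did not overlap, and the rise from P4 to P28 was 2.92 (SE 0.26, adjusted p = 9.18e-05), a 13.4-fold difference of the means. From P10 to P28 the change was 0.90 (adjusted p = 0.0393), above the threshold used here, with each P28 library above each P10 library. All 5 Otx2 peaks rose by P28, from 2.71 to 3.20, and 3 had risen by P10, where 18.9% of all peaks in the series were called higher by P28 and 11.4% by P10. Among all genes, Otx2 moved from the 31.3rd percentile of level at P4 to the 98.0th at P28.

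Of the 4 RefSeq start windows of Otx2, 1 overlapped a peak. The promoter peak nearest a start, chr14:48664887-48665137, had 1.81 and 2.38 RPKM at P4, 7.19 and 25.1 at P10 and 20.9, 25.7 and 37.8 at P28. It is only 251 bases wide and held 1 read in each P4 library, so its rise of 3.20 (SE 0.46, adjusted p = 0.000722) rests on the later ages. The peak in intron 1 of 4, chr14:48667943-48668391, went from 1.01 and 1.33 RPKM at P4 to 16.1 and 12.3 at P10 and 15.2 to 22.7 at P28. The promoter peak farthest upstream, at chr14:48673549-48675529, had its largest values at P28 (14.4, 16.1 and 18.3 RPKM), above both P10 libraries (3.65 and 7.96).

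Crx, the homeodomain partner of Otx2, gained the mark at both of its peaks by P10, where 11.4% of all peaks were called higher. Its promoter peak, chr7:15879224-15880458, had 2.94 and 1.93 RPKM at P4, 13.2 and 10.9 at P10 and 9.77, 17.8 and 19.0 at P28. The rise was 1.93 by P10 (SE 0.38, adjusted p = 0.00449) and 2.23 by P28 (SE 0.35, adjusted p = 0.00105). The distal peak, chr7:15863388-15865498, whose centre carries the 2 CRX and OTX cores shown above, had 2.80 and 1.41 RPKM at P4, 9.41 and 11.2 at P10 and 8.95, 15.3 and 15.95 at P28. Both peaks thus stood at similar levels, with P10 and P28 overlapping. Crx and Rorb are shown as examples by the study on the libraries analysed here, and their calls are therefore no independent evidence.

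Rorb, the orphan nuclear receptor upstream of Nrl, was called higher by P28 but not by P10. Its gene level was 1.64 and 1.60 RPKM at P4, 3.71 and 4.67 at P10 and 5.43, 7.54 and 9.30 at P28. The rise was 1.66 by P28 (SE 0.25, adjusted p = 0.000643), while the change of 0.98 by P10 missed the threshold (adjusted p = 0.0193). Of 23 peaks, 7 (30.4%) rose and 2 (8.70%) fell by P28, where all peaks gave 18.9% and 4.21%. That difference in timing from the other factors was not tested.

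The upstream promoter of Rorb, chr19:19109804-19111766, had 3.24 and 3.04 RPKM at P4, 2.76 and 10.4 at P10 and 10.6, 13.6 and 17.0 at P28. Its change of 1.81 by P28 (SE 0.45) fell just short of the threshold (adjusted p = 0.0103), and the P10 libraries lay on both sides of the P4 values. The downstream promoter, chr19:19000901-19001409, rose by 2.58 (adjusted p = 0.00504), although P4 replicate 2 had no read there and P4 replicate 1 had 3.57 RPKM. The strongest Rorb peak by the mean of the 3 age means, in intron 1 of 9 close to that downstream start (chr19:19004209-19004738), had 3.43 and 2.25 RPKM at P4, 23.8 and 28.3 at P10 and 21.3, 20.1 and 30.6 at P28, and rose by 2.70 (SE 0.29, adjusted p = 0.000225). An intron peak beyond the downstream start, chr19:18998739-18999464, had the largest Rorb rise, 2.75 (SE 0.37, adjusted p = 0.000511). The 2 peaks that fell, in the 3′ UTR (chr19:18936331-18936593) and beyond the gene's end (chr19:18930089-18930435), had only 1 or 2 reads in each P4 library and 0 at P10, so their falls of 1.75 and 1.42 describe a few reads.

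Nrl and Nr2e3, which act in sequence to fix the rod fate, reached their highest mean level at P10, as did Mef2d and Rxrg. Nrl had 3.099 and 2.44 RPKM at P4, 17.7 and 23.4 at P10 and 12.7, 19.4 and 20.2 at P28. It rose by 2.51 by P10 (SE 0.29, adjusted p = 0.000595) and by 2.27 by P28 (SE 0.26, adjusted p = 0.000197). The later ages overlapped, with a Nrl change of -0.24 from P10 to P28 (adjusted p = 0.522). Each of its 3 peaks rose at both ages, where 18.9% of all peaks were called higher by P28 and 11.4% by P10. The promoter peak over the start, chr14:55523678-55525342, had 2.73 and 2.15 RPKM at P4, 18.4 and 18.5 at P10 and 10.2, 17.5 and 18.3 at P28. The distal peak just upstream, chr14:55526275-55527194, rose most, by 2.94 by P10 (adjusted p = 0.000909) and 2.63 by P28 (adjusted p = 0.000447). P28 replicate 1, the batch 2 library, was the lowest P28 library at each of these 2 peaks, and the Nrl rise by P28 was called in all 15 alternatives, the one without it included.

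Nr2e3 had the highest level of the 10 genes at every age. Its level was 5.14 and 5.82 RPKM at P4, 52.3 and 41.9 at P10 and 24.3, 26.9 and 30.3 at P28. The rise was 2.89 by P10 (SE 0.27, adjusted p = 0.000437), an 8.60-fold difference of the means, and 2.12 by P28 (SE 0.25, adjusted p = 0.000207), or 4.96-fold. From P10 to P28 the level was 1.73-fold lower in the mean, a change of -0.77 (adjusted p = 0.0531) that missed the threshold, with each P28 library below each P10 library. This was 1 of the 2 factors with that pattern, the other being Rxrg, where 11.1% of all genes showed it.

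Most of the Nr2e3 signal came from the broad promoter peak at chr9:59948856-59953561. That region had 6.57 and 7.86 RPKM at P4, 69.4 and 59.3 at P10 and 30.2, 32.8 and 36.0 at P28, so all ages stood apart. It rose by 2.99 by P10 (SE 0.26, adjusted p = 0.000381), and its change from P10 to P28 was -0.94 (adjusted p = 0.0314). A second peak annotated as a Nr2e3 promoter, chr9:59959371-59960483, lies at -9.85 kb from the RefSeq start and had 1.22 and 0.536 RPKM at P4, 14.6 and 4.96 at P10 and 14.4, 17.1 and 23.9 at P28, a rise of 3.37 (SE 0.44, adjusted p = 0.00044). The peak in intron 5 of 7, chr9:59947753-59948327, changed by 1.35 by P28 (adjusted p = 0.0199) and was not called.

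Neurod1 and Mef2d, which support photoreceptor differentiation, rose by P10 and differed little from P10 to P28. Neurod1, a bHLH factor, had 4.54 and 4.15 RPKM at P4, 15.7 and 17.5 at P10 and 19.4, 22.0 and 23.0 at P28. It rose by 1.72 by P10 (SE 0.23, adjusted p = 0.000888) and 2.07 by P28 (SE 0.21, adjusted p = 0.000118), and the 3 P28 libraries lay above the P10 libraries, with a change of 0.35 (adjusted p = 0.236). Its promoter peak, chr2:79456460-79457499, had 7.43 and 4.02 RPKM at P4, 20.8 and 22.0 at P10 and 28.3, 28.9 and 32.4 at P28. The peak in its 5′ UTR, chr2:79454889-79455454, rose by 2.69 (SE 0.42, adjusted p = 0.00106) from 2 reads in each P4 library.

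Mef2d, a MADS-box factor that works with CRX at photoreceptor genes, had 1.74 and 2.96 RPKM at P4, 17.4 and 15.2 at P10 and 12.9, 15.7 and 17.5 at P28. It rose by 2.39 by P10 (SE 0.26, adjusted p = 0.000548) and 2.30 by P28 (SE 0.24, adjusted p = 0.000138), with overlapping later ages. The strongest peak was not the promoter but the one in intron 1 of 10, chr3:88147494-88148629, shown above. It had 2.40 and 2.63 RPKM at P4, 35.0 and 34.7 at P10 and 30.5, 36.8 and 40.0 at P28, a rise of 3.38 (SE 0.24, adjusted p = 0.000113) or 14.2-fold. The promoter peak, chr3:88141878-88143596, rose by 2.49 (SE 0.28, adjusted p = 0.000258) from 2.91 and 2.43 RPKM at P4 to 16.03, 20.02 and 23.2 at P28.

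Prdm1, the zinc finger repressor that restrains bipolar genes in photoreceptor precursors, rose at gene level, with peaks spread over 110.0 kb. Its level was 1.77 and 1.63 RPKM at P4, 7.53 and 11.5 at P10 and 8.85, 11.4 and 12.2 at P28, a rise of 1.93 by P10 (SE 0.26, adjusted p = 0.000942) and 2.12 by P28 (SE 0.24, adjusted p = 0.000181). Of 21 peaks, 12 (57.1%) rose by P28 and 10 (47.6%) by P10, where all peaks gave 18.9% and 11.4%, and none fell. A run of 6 neighbouring intron peaks was not called by P28, of which 1 was called by P10. Promoter signal per kilobase was 0.770 and 0.962 times that of introns at P4, 0.855 and 0.894 times at P10 and 2.08, 1.81 and 2.15 times at P28, while over all peaks of the series it was 1.04 to 1.21 times at P4 and P10 and 1.35 to 1.52 times at P28.

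The promoter peak at the RefSeq start of Prdm1, chr10:44457964-44459178, had 1.87 and 1.96 RPKM at P4, 5.94 and 14.9 at P10 and 19.0, 21.0 and 27.0 at P28. Its rise was 2.99 (SE 0.37, adjusted p = 0.000371), with all P28 libraries above the P10 libraries. The promoter of a longer annotated transcript, chr10:44529209-44530221, had 0.897 and 1.18 RPKM at P4, 8.91 and 7.78 at P10 and 16.3, 20.1 and 23.4 at P28, a rise of 3.35 (adjusted p = 0.000126). The strongest other peak, chr10:44463270-44466081, in intron 1 of 3 of that transcript, had already reached 16.7 and 28.3 RPKM at P10 and was at 20.3, 23.9 and 24.6 at P28. The largest Prdm1 rise was in the distal peak chr10:44536072-44536744, by 3.60 (SE 0.57, adjusted p = 0.00118), where P4 held 2 and 0 reads.

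Thrb, the thyroid hormone receptor of cones, showed a smaller gene-level rise by P28 than the other rising factors, spread over a far larger region. Its level was 1.71 and 1.88 RPKM at P4, 4.48 and 7.61 at P10 and 5.05, 6.67 and 7.30 at P28. The rise was 1.30 by P10 (SE 0.28, adjusted p = 0.00656) and 1.38 by P28 (SE 0.26, adjusted p = 0.00196). Both calls depend on the scaling: scaled to total reads in peaks, the changes were 0.28 and 0.20 and were not called. Quantile normalised they were 0.75 and 0.53, also not called. Of 95 peaks, 18 (18.9%) rose by P28, the same share as over all peaks (18.9%), and 21 (22.1%) by P10, where all peaks gave 11.4%; none fell. The size of the Thrb rise was not tested against that of the other factors.

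Thrb had marked start sites whose changes were not tested against each other. The upstream promoter, chr14:17659853-17661415, was the strongest member peak at P4, with 10.5 and 9.93 RPKM, and had 26.6 and 27.7 at P10 and 33.1, 33.5 and 42.1 at P28. It rose by 1.73 (SE 0.24, adjusted p = 0.000593), or 3.55-fold, but under quantile normalisation its change was -0.21. The downstream promoter, chr14:17981087-17982337, covers the RefSeq start of transcript variant 2, at 17981644, which encodes the cone form of the receptor (TRβ2). It had 2.91 and 2.86 RPKM at P4, 5.77 and 4.41 at P10 and 3.77, 5.01 and 4.97 at P28, a change of 0.52 that was not called (adjusted p = 0.229). A promoter peak between them, chr14:17962025-17964197, had 4.15 and 10.9 RPKM at P10 and 3.02 to 4.86 at P28, and its change of 1.319 by P28 was not called (adjusted p = 0.0545).

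The region upstream of Thrb held 40 distal peaks, between -255 and -3.46 kb from the upstream start. There 16 peaks had risen by P10 and 11 by P28, while of the 49 intron peaks 4 had risen by P10 and 5 by P28. All distal peaks of the series gave 9.09% higher by P10 and 11.8% by P28, and all intron peaks 12.2% and 19.5%. From P10 to P28, 12 of the 40 upstream peaks had all P28 libraries below all P10 libraries and 3 had them above, beside 17.4% and 24.9% of all distal peaks. In the introns 5 of 49 were below and 17 above, beside 15.4% and 31.3% of all intron peaks. The distal signal per kilobase was 1.02 and 1.30 times the intron signal at P4, 2.51 and 2.65 times at P10 and 1.41, 1.45 and 1.43 times at P28, whereas over all peaks it lay between 0.775 and 1.12 times. The upstream share thus stood apart at P10 in both libraries.

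The distal Thrb peak chr14:17431418-17432240, at -229 kb from the upstream start, had no read in either P4 library. It had 10.97 and 11.5 RPKM at P10 and 10.5, 17.8 and 18.5 at P28, and its rise of 4.01 (SE 0.34, adjusted p = 0.000115) was the largest of the 182 peaks. Against a floor of 3 reads in each P4 library it was at least 8.14-fold higher at P28. The merged peak set can hold it only through the later ages, where it was high, so its rise and p-value are descriptive. The distal peak with the highest mean of the 3 age means, chr14:17632510-17634107, had 3.13 and 4.11 RPKM at P4, 21.5 and 31.6 at P10 and 12.6, 16.8 and 19.2 at P28, so its P28 libraries lay below both P10 libraries (change -0.67, adjusted p = 0.153). It was not the highest at each age: at P28 its mean of 16.2 RPKM lay below those of the distal peaks chr14:17603461-17604019 (22.0) and chr14:17657070-17657928 (27.7), whose means at P10 were 18.4 and 11.2. The distal peak that starts at chr14:17606007 was also slightly higher at P28 (16.6), with a P10 mean of 6.90. The lowest change in Thrb, in the exon peak chr14:18030393-18030808, was -0.86 and was not called (adjusted p = 0.116), with 2 reads in each P4 library.

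**Figure D2:**
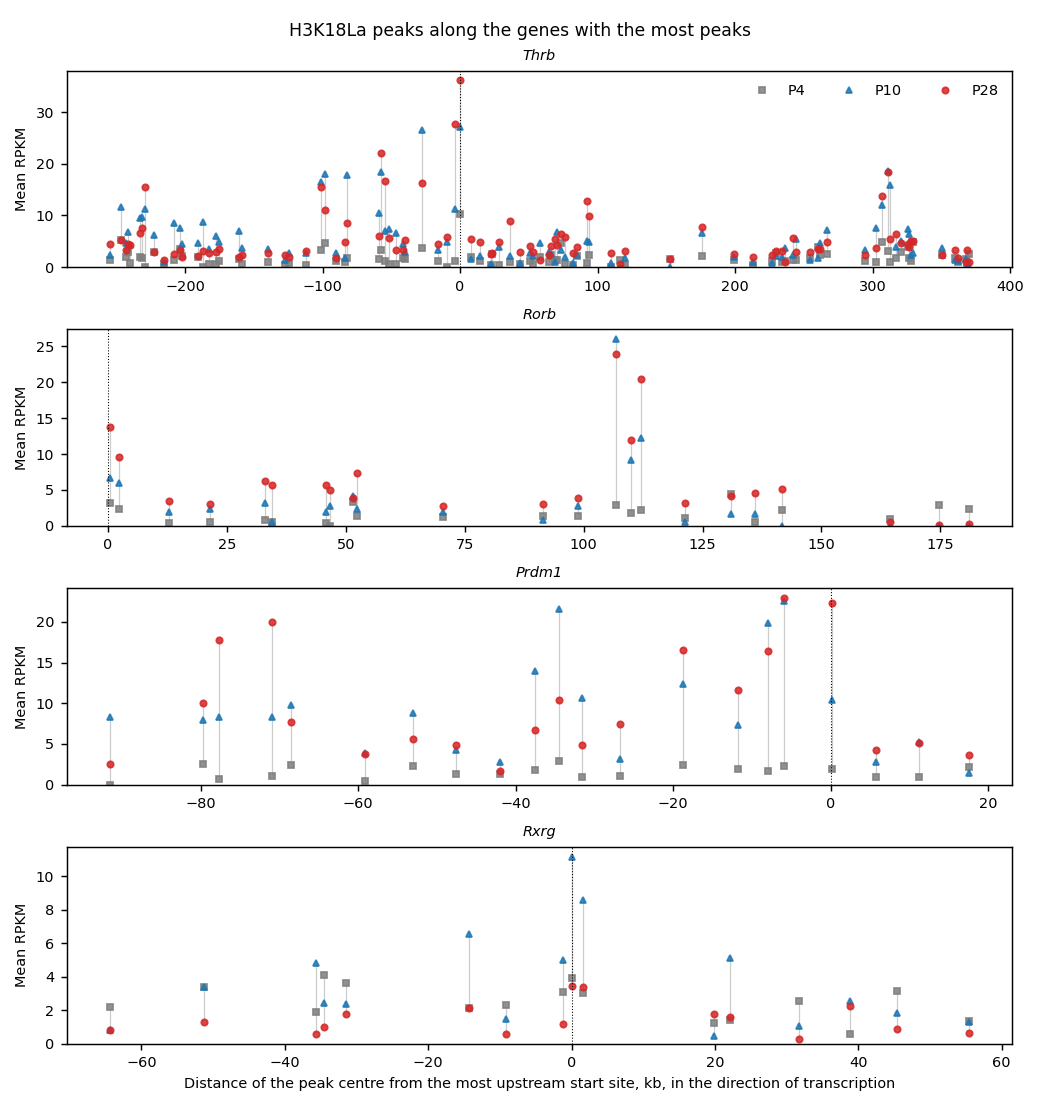
Mean H3K18La level of each peak in RPKM (vertical axis, from 0) at P4 (squares, n = 2), P10 (triangles, n = 2) and P28 (circles, n = 3) against the distance of its centre from the gene's most upstream RefSeq start in kb (dotted line), for Thrb, Rorb, Prdm1 and Rxrg; grey lines join the ages of 1 peak. Upstream of Thrb many P10 triangles lie above the P28 circles, while at Rxrg most P28 circles lie below the P4 squares.

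Rxrg, the retinoid X receptor of cones and the usual partner of TRβ2, was the exception among the 10 genes. Its level was 2.73 and 2.27 RPKM at P4, 4.12 and 3.78 at P10 and 1.36, 1.60 and 1.56 at P28. The 3 ages did not overlap, but none of the differences was called: 0.50 from P4 to P10 (SE 0.26, adjusted p = 0.162), -0.98 from P10 to P28 (SE 0.24, adjusted p = 0.0219) and -0.48 from P4 to P28 (SE 0.24, adjusted p = 0.108). Among all genes, 21.6% had every P28 library below every P4 library. Scaled to total reads in peaks, median centred or quantile normalised, Rxrg fell from P4 to P28 and was called, by 1.58, 1.08 and 1.48 in that order, so the call depends on the scaling; over the 15 alternatives the adjusted p ran from 0.00123 to 0.30. Its percentile among all genes went from 84.8 at P4 to 77.8 at P10 and 27.6 at P28.

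No Rxrg peak passed the test in either direction, where 18.9% of all peaks were called higher and 4.21% lower by P28. Of 16 peaks, 8 had all P28 libraries below both P4 libraries and 2 had them above, where all peaks gave 20.7% and 50.6%, and the median change was -0.72. Over the upstream start, chr1:167597896-167599090 had 3.80 and 3.99 RPKM at P4, 15.1 and 7.26 at P10 and 2.20, 4.32 and 3.76 at P28. The peak just before it, chr1:167596759-167597512, had 3.01 and 3.17 RPKM at P4, 4.79 and 5.23 at P10 and 1.39, 1.14 and 0.916 at P28, a change of -0.93 by P28 (adjusted p = 0.072). The first-intron peak chr1:167599464-167600449 had 9.15 and 7.995 RPKM at P10 and 2.98 to 4.05 at P28, with P4 at 1.84 and 4.24. These 3 neighbouring peaks shared the order P10 highest, and their P28 libraries lay below both P10 libraries. Of all 16 Rxrg peaks, 6 had every P28 library below every P10 library and 1 above, where all peaks gave 14.9% and 32.2%. The downstream start, chr1:167617827-167618664, was low throughout, from 0 to 2.05 RPKM. The lowest and highest changes, in introns 4 and 9 of 9 (chr1:167629913-167630296, -1.45, and chr1:167636973-167637484, 1.11), rest on 4 and 1 reads over the P4 libraries and were not called.

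Ordered by gene level, Nr2e3 was first at every age and Neurod1 and Nrl took the next places. At P4 the ranges of Nrl, Rxrg, Mef2d, Crx, Thrb, Prdm1 and Rorb each overlapped that of the gene before or after it, and Otx2 stood below them. At P10 Nr2e3, Nrl and the pair of Neurod1 and Mef2d were separate, and from Crx down to Rxrg each gene overlapped its neighbour. At P28 Nr2e3 stood above the rest, Rxrg stood below them, and each of the 8 genes between overlapped its neighbour.

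Of the 20 promoter peaks, 14 rose by P28, where 31.3% of all promoter peaks were called higher, and the median change was 2.22 against 1.26 for all promoters. By P10, 12 of 20 rose, against 12.8% of all promoter peaks. The 6 that were not called by P28 were the upstream Rorb promoter, 2 Thrb promoters and the 3 Rxrg promoters. In introns 22 of 94 member peaks (23.4%) rose by P28, beside 19.5% of all intron peaks; Thrb gave 49 of the 94, of which 5 (10.2%) rose, and without Thrb 17 of 45 (37.8%) rose. In distal regions 18 of 58 (31.0%) rose against 11.8% of all distal peaks, and in exons or UTRs 5 of 10 against 20.2%. The distal members had a median change of 1.23 against 0.10 for all distal peaks; without Thrb, 7 of the 18 distal members (38.9%) rose, and their median was -0.25, with 9 of the 18 at Rxrg, where the distal median was -0.77.

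**Figure D3:**
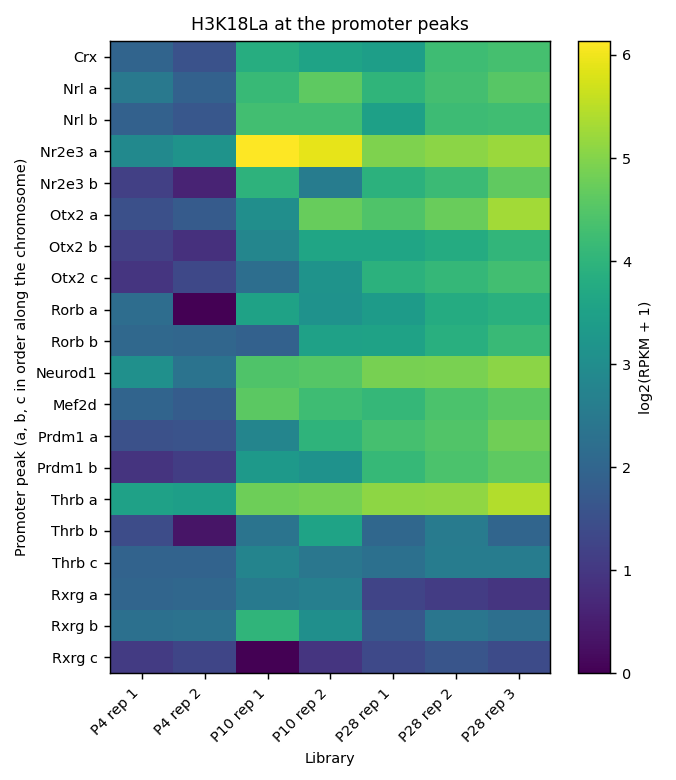
H3K18La level, as log2(RPKM + 1) by colour, at the 20 promoter peaks (rows, in order along the chromosome within a gene) in the 7 libraries (columns). The P4 columns are dark for most rows apart from the upstream Thrb promoter (10.5 and 9.93 RPKM), the main Nr2e3 promoter is brightest at P10 (69.4 and 59.3 RPKM), and the 3 Rxrg rows stay dark at P28.

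Over all 182 peaks, 59 rose and 2 fell from P4 to P28, where 18.9% of all peaks were called higher and 4.21% lower, and the median change was 1.36 against 0.68 for all peaks. From P4 to P10, 53 rose and 2 fell, where 11.4% of all peaks were called higher and 7.34% lower, with a median of 1.03. Across the 3 ages 61 passed the moderated F-test (24.6% of all peaks). From P10 to P28 none passed in limma (0.00185% of all peaks did), 48 had an unadjusted p under 0.05 (32.5% of all peaks), 45 had all P28 libraries above all P10 libraries and 31 below, where all peaks gave 32.2% and 14.9%; voom called 5. The count of 0 did not hold without P10 replicate 2, so it depends on that library. In that fit P10 replicate 1 alone stands for P10, and the members were not compared with all peaks.

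The counts depend on single libraries and on the scaling. The 61 calls from P4 to P28 became 18 and 23 without P4 replicate 1 or 2, 35 and 34 without P28 replicate 2 or 3, and 94 without either P10 library; within batch 1, without P28 replicate 1, they were 43. Scaling to total reads in peaks left 30 calls, 21 higher and 9 lower, and quantile normalisation 38, 30 higher and 8 lower. The shares of all peaks called without those libraries or under those scalings are not given, so the counts describe the members only. Those scalings moved the median change of all peaks from 0.68 to -0.29 and 0.09, and the part of the share of reads in peaks in the members' rise beyond this was not tested. Of the 28 individually described peaks chosen by rule, 21 were called from P4 to P28, of which 13 and 11 lost the call without P4 replicate 1 or 2, which leaves 1 library at P4, and 1 without P28 replicate 3. Scaling to total reads in peaks lost 8 of these 21 calls, quantile normalisation 6, with the upstream Thrb promoter reversed among them, and a pseudocount of 0.1 lost 2.

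**Figure D4:**
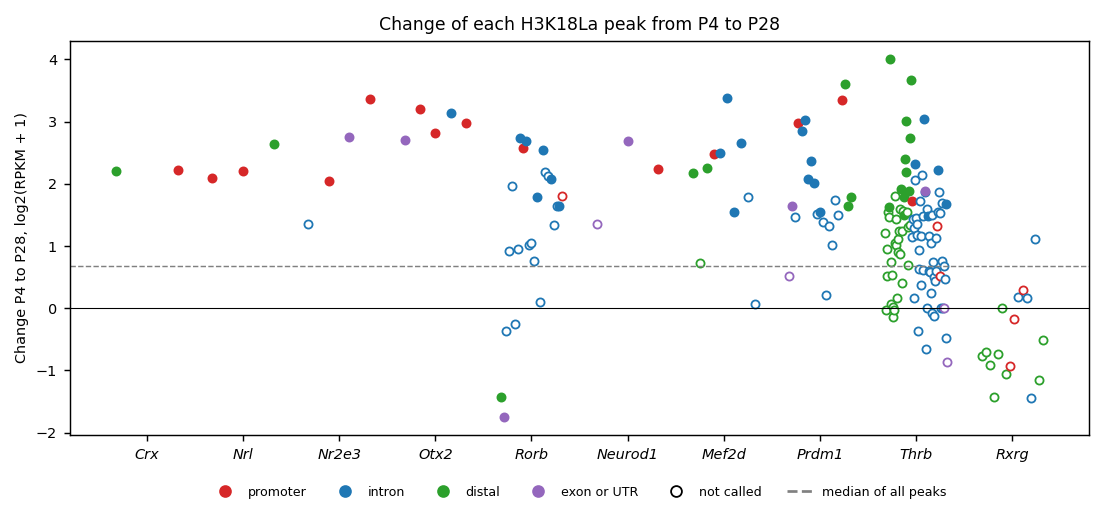
Change from P4 to P28 on the log2(RPKM + 1) scale (vertical axis) of each of the 182 peaks, by gene and in order along the chromosome; colours give the peak class and filled points passed the test. The dashed line is the median of all peaks (0.68). Peaks of Otx2, Nrl and Crx all lie above 2, those of Thrb range from -0.86 to 4.01, and most Rxrg peaks lie below 0.

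Within batch 1, 9 genes remained called from P4 to P28. The Crx call was lost without P4 replicate 2 (1.94) and the Rorb call without P4 replicate 1 or 2 (1.67 and 1.65). The Thrb call was lost without P4 replicate 1 or 2 (1.335 and 1.425) and without P28 replicate 2 or 3 (1.342 and 1.285). From P4 to P10 the calls of Crx (2.20 and 1.63), Otx2 (2.03 and 2.02) and Prdm1 (1.97 and 1.90) were lost without P4 replicate 1 or 2. The Thrb call at P10 was lost without any single library other than P10 replicate 1, with changes from 0.97 to 1.342. Nrl, Nr2e3, Mef2d, Neurod1, Otx2 and Prdm1 kept the call from P4 to P28 whichever library was left out. The P28 calls of Nr2e3 were lost when scaled to total reads in peaks (0.71) and when quantile normalised (0.44), as were those of Crx (0.96 and 1.15) and Thrb (0.20 and 0.53). The P28 call of Rorb was lost when scaled to total reads in peaks (0.49) but not when quantile normalised, and that of Neurod1 when quantile normalised (0.49) but not when scaled. The P10 calls of Crx (0.85 and 1.055), Neurod1 (0.53 and 0.20) and Thrb (0.28 and 0.75) were lost under both scalings.

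The related genes of the pathway were compared at the promoter peak nearest the start, where 33.8% of 9918 protein-coding genes were called higher from P4 to P28 with a median change of 1.36. Of 22 rod and cone genes downstream of these factors, 20 had a promoter peak and 16 of them rose, with a median of 2.44. The largest rise was at Gnat1 (rod transducin, 3.21), and the lowest change was at Cngb3 (cone channel subunit, -0.06). The 4 that were not called, Gnat2, Gngt2, Cnga3 and Cngb3, are cone genes, while the cone genes Pde6c and Arr3 rose, by 2.30 and 1.72. Rod and cone genes were not tested against each other.

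Of the cofactors and other regulators of photoreceptor genes, 11 of 17 promoter peaks rose, with a median of 1.77. Sp1, a GC box factor, rose most (2.97), and Onecut1, a factor of horizontal cells and early precursors, had the lowest change (-1.14, adjusted p = 0.039, not called). Of the paralogs of the members, 7 of 13 rose with a median of 1.339, from Mef2c (3.90) to Otx1 (-0.72, not called). Factors of progenitors and other retinal fates had 2 of 15 called higher, with a median of 0.43. These 2 were Hes5, a Notch target (2.71), and Six6, an eye field factor (2.01). No gene of these lists was called lower from P4 to P28. Among the 3 promoters of other tissues, Ckm (muscle creatine kinase) rose by 2.41, Best1 (pigment epithelium) changed by -0.57 and Cryaa (lens crystallin) by 0.41.

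The 5 genes whose promoter level followed the members' promoters most closely over the 7 libraries were Fam149a, Ppp1r42, Nrip1, Nt5e and Gdf2, each with a Pearson r of 0.997 or 0.998 on the log2(RPKM + 1) scale. The reference was the mean over 10 member promoter peaks, and 3556 candidates had at least 20 reads over the P4 and P10 libraries. An r above 0.95 was found for 808 candidates (22.7%), and the median r was 0.864, since the points share the libraries' age and depth. The order among the closest genes is therefore a description of these 7 libraries.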

How the data were processed

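Mouse retina H3K18La CUT&Tag libraries (P4, n = 2; P10, n = 2; P28, n = 3) were grouped by their labels. The study describes 3 replicates per age and peaks kept when seen in at least 2 of them; only the 7 libraries given here were analysed. The authors aligned reads to GRCm38 (nf-core/cutandrun), called peaks with MACS, merged them across ages, annotated them to the nearest gene with ChIPseeker 1.34.1, and deposited RPKM per peak, scaled by library sizes from large genomic windows (edgeR 3.40.2 in the submitters' processing notes). Their table of fold changes, p-values and FDR between ages was not used. A peak's gene is its nearest annotated gene, and promoters span 1000 bases before to 500 after a start.

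RPKM times peak width gave whole reads at 100% of peaks (within 0.0001 reads); such reads cover counting error only. All 108253 peaks, or 25420 genes with their peaks summed, were fitted with limma 3.58.1 (R 4.3.3), using log2(RPKM + 1) values, a variance trend, 1 term for age and all 7 libraries, with no filter on low values. P-values were Benjamini-Hochberg adjusted over all features and calls made at 0.01. Adding 1 RPKM before the log understates changes of low peaks. Folds against an age with 3 reads or fewer in each library used 3 reads per library. The fit was tested on simulated data, where it missed many of the true changes. A peak or gene that was not called may therefore still have changed.

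Members and gene lists were chosen with earlier results of these data known. Peaks described singly were, per gene, the promoter peak nearest the start (ties broken by coding transcript, then level), the other peak with the highest mean of the 3 age means, and the largest rise and fall; other promoter peaks and the 2 fallen Rorb peaks were added after their values were seen. Genes from other lists were the highest and lowest change and those in small counts. Alternatives were pseudocount 0.1, a filter on low values, 3 scalings, voom, library weights, the replicate number as a block, and each library left out.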

Additional observations from a re-analysis of the deposited data

How the results depend on the processing

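With P28 against P4, the 61 member peaks called became 30 when scaled to total reads in peaks, 38 when quantile normalized, 93 with voom on the recovered reads and 102 with estimated library weights, and 18 to 94 with 1 library left out. With P10 against P4, 55 became 26, 14 and 27 under scaling, quantile normalization and library weights, and 14 to 61 with 1 library left out. Across the ages, 61 became 31, 29 and 96, and 9 to 109. With P28 against P10, 0 became 2 when median centred and 5 with voom, and 0 to 26. Leaving out a library also lowers the degrees of freedom, yet the counts went up as well as down. The cause of these moves was not tested. The counts have no share of all peaks in the same fit beside them and describe the members only.

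At gene level, 9 calls at P28 ranged from 6 to 9 with 1 library left out. The 8 calls at P10 became 5 under scaling and 5 under quantile normalization, and 4 to 8 with 1 library left out. The 0 calls from P10 to P28 became 2 when median centred and 1 with voom, and 0 to 1 with 1 library left out. Scaling and quantile normalization left 5 of the 9 P28 rises, and each added Rxrg as lower.

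Directions turned for the upstream Thrb promoter, which was called at both ages, and in values that were not called. The Rxrg gene change by P10 was -0.55 scaled and -0.20 quantile normalized. For single peaks, with P28 against P4, the Nr2e3 intron peak was -0.027 and -0.17 under the same settings. The upstream Rorb promoter by P10 was -0.46 and -0.27, and ran from -0.139 (without P10 replicate 2) to 1.467 with 1 library left out. The upstream Thrb promoter under quantile normalization was -0.21 by P28 and -0.70 by P10. The Rxrg promoter by P28 was 0.052 with library weights and ran from -0.329 to 0.039 (without P28 replicate 1) with 1 library left out, and the Rxrg first-intron peak was -1.01 scaled, -0.34 median centred, -0.70 quantile normalized and ran from -0.256 (without P4 replicate 1) to 0.625 with 1 library left out. The causes were not tested.

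The labels give the ages the same replicate numbers. With the replicate number as a block, 44, 50, 0 and 48 member peaks were called with P28 against P4, P10 against P4, P28 against P10 and across the ages, and 9, 8 and 0 genes in the 3 pairs. Replicate 3 exists at P28 only, so its block term takes up that library, which then adds nothing to the age contrasts. The deviations of same-numbered libraries from their age means had correlations from -0.001 to 0.047, and the numbers were not taken to pair the libraries. With only 2 libraries each at P4 and P10 and few reads per peak, these correlations cannot exclude pairing. Depth limits P4 and P10, where 97 and 64 of the 182 peaks had 3 reads or fewer in each library.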
